A study of Rattus norvegicus with 13 samples.

Results

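DNA repair genes were followed in 13 rat mammary samples. A set of 43 genes was chosen by name for a role in the repair of DNA or in its sensing, and a gene was measured where a probe of the array carried a RefSeq accession of that gene. Of the 43 genes, 32 had such a probe, and all 32 were among the 25361 features tested, of which 10516 carried a gene symbol. The 11 without a probe here were Atr, Tp53bp1, Palb2, Rad52, Blm, Wrn, Fanca, Fanci, Lig3, Msh6 and Ercc2, and nothing below speaks of them. By pathway, the measured genes were 6 of 6 of end joining, 8 of 10 of damage sensing and checkpoint, 5 of 9 of homologous recombination, 1 of 3 of Fanconi crosslink repair, 6 of 7 of base excision and single-strand break repair, 2 of 3 of mismatch repair, 3 of 4 of nucleotide excision repair and 1 of 1 of postreplication repair.

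The samples were frozen tissue of female Sprague-Dawley rats, an outbred stock, with 1 array each. The IR-3W group held 4 mammary carcinomas of rats whose whole body had received 2 Gy of 137Cs gamma radiation, at a rate of 0.6 Gy/min, when they were 3 weeks old, before puberty. The IR-7W group held 6 mammary carcinomas of rats given the same dose when 7 weeks old, after puberty. Rats with carcinomas had eaten an AIN-76A diet enriched with corn oil (23.5%) from week 9 on, and palpable tumours were taken at 50 weeks. The normal group held 3 samples of mammary tissue of non-irradiated rats, whose age is given once as 7 weeks and once as matched, so age and diet may differ from the carcinoma groups. The carcinomas were taken long after the exposure, so no sample shows an acute response to radiation. Whether each sample is from its own animal is not stated in the labels, so a p-value here reflects sample-to-sample spread that may be only technical.

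Ionising radiation breaks both strands of DNA, and cells rejoin the ends in several ways. In end joining, the Ku heterodimer of Xrcc6 (Ku70) and Xrcc5 (Ku80) binds a broken end and recruits the DNA-dependent protein kinase Prkdc, after which Lig4 with Xrcc4 and Nhej1 seals the break. The Mre11, Rad50 and Nbn complex senses breaks and activates the kinase Atm, while homologous recombination, with Brca1, Brca2 and their partners, copies the lost sequence from a sister chromatid and works in dividing cells. Damaged bases and single-strand breaks are handled by glycosylases such as Ung and Ogg1, the endonuclease Apex1, the sensor Parp1 and the scaffold Xrcc1.

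The values below are levels on a log2 scale, namely the log2 signal of a probe minus the 75th percentile of its own array, so that 0 is the 75th percentile and a difference of 1 is a 2-fold change. Probes differ in brightness, so a level is compared only between samples and never between genes. Differences were tested with limma on all 13 arrays, with p-values adjusted by Benjamini-Hochberg over all features and 0.05 as the threshold. Normal arrays were dimmer, with a 75th percentile of 82.3 to 179 signal units against 276 to 1240 on carcinoma arrays, and they lay on a slide of their own read by another scanner, so tissue, slide and scanner cannot be told apart in any comparison with normal tissue. The signal of RNAs spiked in at known amounts had a slope of 0.759 to 0.845 on normal arrays and 0.924 to 0.987 on carcinoma arrays. Cell types also differed: the summed linear level of 9 adipocyte markers was 281 to 323 in normal tissue, 10.2 to 111 in IR-3W and 9.58 to 15.3 in IR-7W carcinomas, and that of 8 fibroblast markers 229 to 278, 503 to 1520 and 137 to 320. Luminal epithelial markers, 9 of 9, were well above background on every array. In bulk tissue, fewer cells of a type and less RNA per cell cannot be told apart.

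A handful of repair genes differed from normal tissue, some higher and some lower. In IR-3W carcinomas 3 of 32 genes rose (Prkdc, Xrcc5 and Rad50) and 4 fell (Parp1, Xrcc1, Ung and Xpa), against 9.24% of all features higher and 5.35% lower. That is 21.9% of the repair genes, where 14.6% of all features passed. In IR-7W carcinomas 4 of 32 rose (Prkdc, Xrcc5, Rad50 and Xrcc6) and 2 fell (Parp1 and Xrcc1), against 11.9% of all features higher and 8.85% lower, and the 18.8% called was close to the 20.8% of all features. The median difference of the 32 genes was -0.05 in IR-3W and -0.15 in IR-7W, with -0.01 and -0.02 over all features. These 2 comparisons share the normal samples. Between the carcinoma groups 0 of 32 passed in limma, where 0.737% of all features passed (0.588% higher and 0.15% lower in IR-3W).

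**Figure D1:**
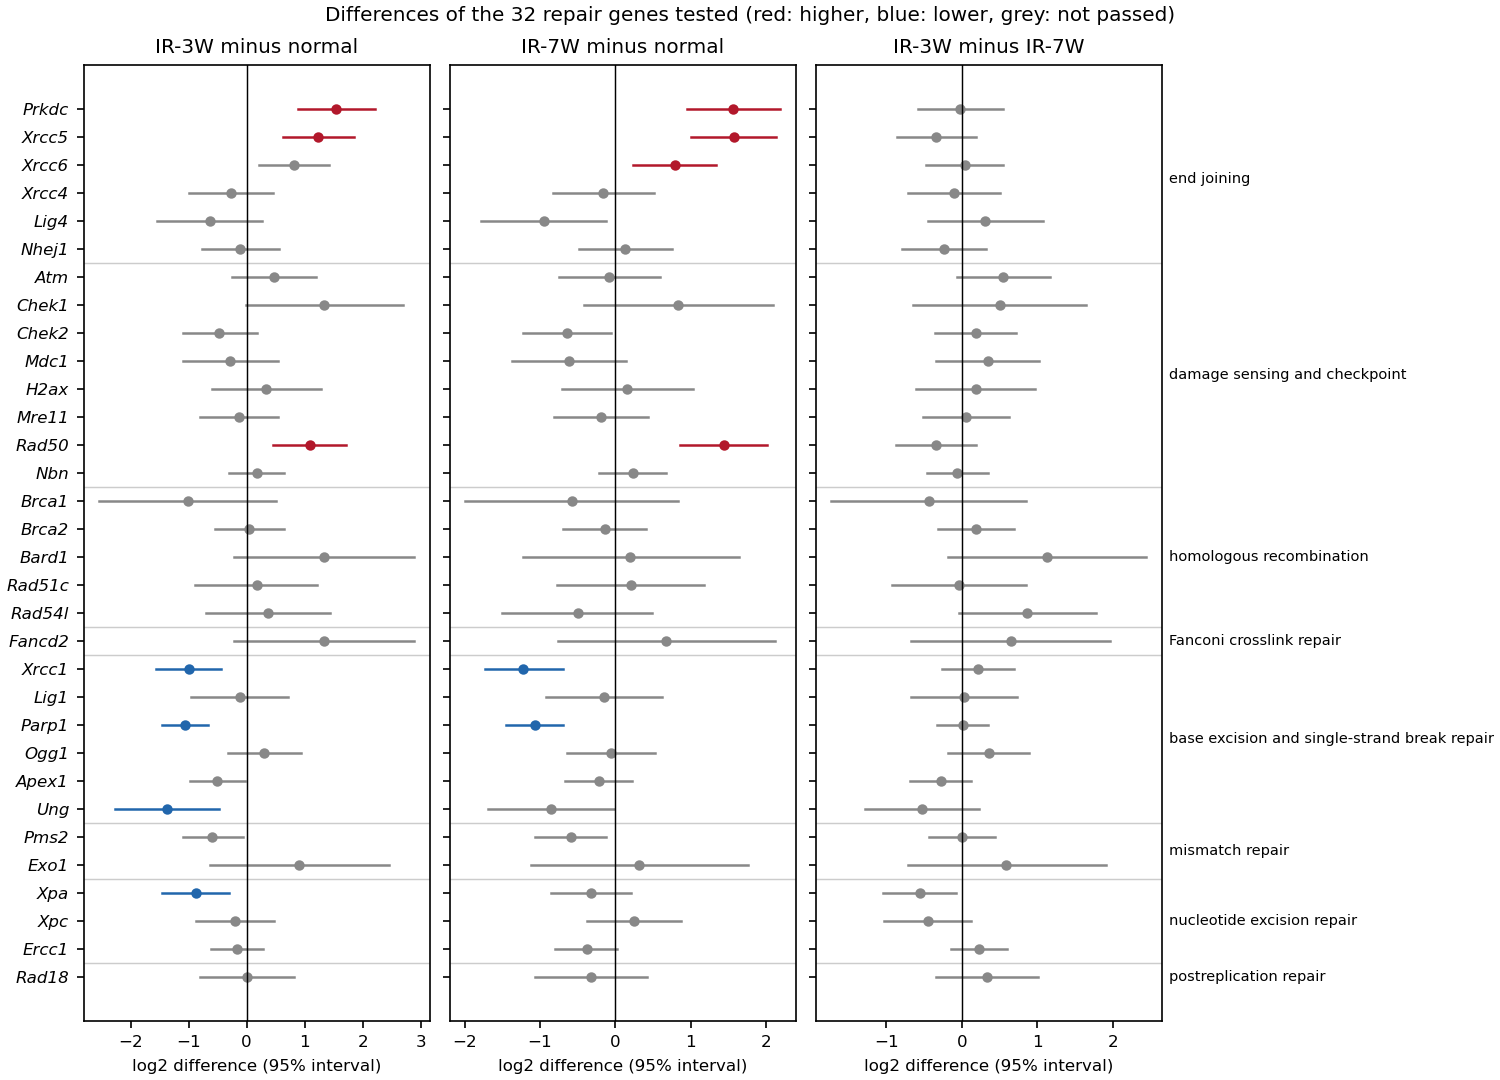
The log2 difference of each of the 32 repair genes (points) with its 95% interval (lines) for each carcinoma group against normal tissue and for IR-3W against IR-7W, grouped by pathway. Red and blue mark genes that passed the test upward and downward: Prkdc, Xrcc5 and Rad50 are red and Xrcc1 and Parp1 blue in both comparisons with normal tissue, and all points of the carcinoma comparison are grey.

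Of the 6 end joining genes, 2 rose in IR-3W and 3 in IR-7W, and 0 fell by limma, where 9.24% and 11.9% of all features were higher. For Prkdc, the kinase, the levels were -2.46, -2.31 and -1.66 in normal tissue, -0.07, -0.70, -0.82 and -0.77 in IR-3W carcinomas, and from -0.90 to 0.09 with a median of -0.68 in IR-7W carcinomas. All 10 carcinomas were above all 3 normal samples. Prkdc rose by 1.55 ± 0.31 (SE), a 2.94-fold difference, in IR-3W (limma, adjusted p = 0.0051) and by 1.57 ± 0.29, or 2.97-fold, in IR-7W (adjusted p = 0.00219). Under normexp, another background correction, the differences were 0.70 and 0.66, and the IR-3W call was lost (adjusted p = 0.136). Both calls rest on 1 of its 2 probes. The other probe, of the same transcript accession, was well above background on 0 of 3 normal, 1 of 4 IR-3W and 3 of 6 IR-7W arrays. Its levels ran from -4.51 to -3.99 in normal tissue and from -6.99 to -4.12 in the carcinomas. With its differences of -1.72 and -1.61 (adjusted p = 0.0726 and 0.056) it did not pass, and since the normal arrays hold no more than a bound, no fold is read from it. The mean of both probes differed by -0.08 and -0.02.

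Xrcc5, the larger Ku subunit, stood at -2.67, -2.12 and -2.15 in normal tissue, at -0.90, -0.82, -1.68 and -0.91 in IR-3W carcinomas, and from -1.03 to -0.20 with a median of -0.86 in IR-7W carcinomas. Every carcinoma was above every normal sample, and the lowest of them was IR-3W 3. Xrcc5 rose by 1.23 ± 0.28 in IR-3W (2.35-fold, adjusted p = 0.0117) and by 1.58 ± 0.26 in IR-7W (2.98-fold, adjusted p = 0.00125). Without normal 1 the IR-3W difference was 1.06 and no longer passed (adjusted p = 0.0605), while the IR-7W call held whichever array was left out. Under normexp the differences were 0.20 and 0.27 and neither passed.

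Xrcc6, the smaller Ku subunit and the obligate partner of Xrcc5, stood at -1.40, -1.01 and -0.25 in normal tissue, at -0.19, 0.27, -0.16 and -0.17 in IR-3W carcinomas and from -0.33 to 0.22 with a median of -0.14 in IR-7W carcinomas. The IR-3W samples were all above normal tissue, whereas the lowest IR-7W samples overlapped with normal 3. The difference was 0.79 ± 0.26 in IR-7W (1.73-fold, adjusted p = 0.0462) and 0.82 ± 0.28 in IR-3W (1.77-fold, adjusted p = 0.0658), of which the first passed and the second did not. Both lie at the threshold: the IR-7W call held in 3 of 13 fits that left out 1 array, with 0.53 (adjusted p = 0.224) without normal 1 and 0.73 (adjusted p = 0.154) without normal 2, and the IR-3W difference passed at 1.14 (adjusted p = 0.0155) without normal 3.

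Lig4, Xrcc4 and Nhej1 did not pass in the fit described above. Lig4, the ligase, stood at -0.67, -0.67 and -0.25 in normal tissue, at -1.76, -1.88, 0.16 and -1.2 in IR-3W carcinomas and from -1.89 to -1.12 in IR-7W carcinomas. So 9 of 10 carcinomas lay below all normal samples and IR-3W 3 lay above them all. Its difference was -0.95 ± 0.38 in IR-7W (adjusted p = 0.0976) and -0.64 ± 0.41 in IR-3W (adjusted p = 0.332). Without IR-3W 3 it passed in both, at -0.95 (adjusted p = 0.0113) and -1.08 (adjusted p = 0.0159). IR-3W 3 also had the highest summed adipocyte and fibroblast levels of the carcinomas, 111 and 1520, and the dimmest carcinoma array, and their part in the Lig4 value was not tested. Xrcc4, the ligase's partner, differed by -0.27 ± 0.33 and -0.16 ± 0.31, and Nhej1, the factor also called XLF, by -0.11 ± 0.31 and 0.13 ± 0.28, all with overlapping samples.

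**Figure D2:**
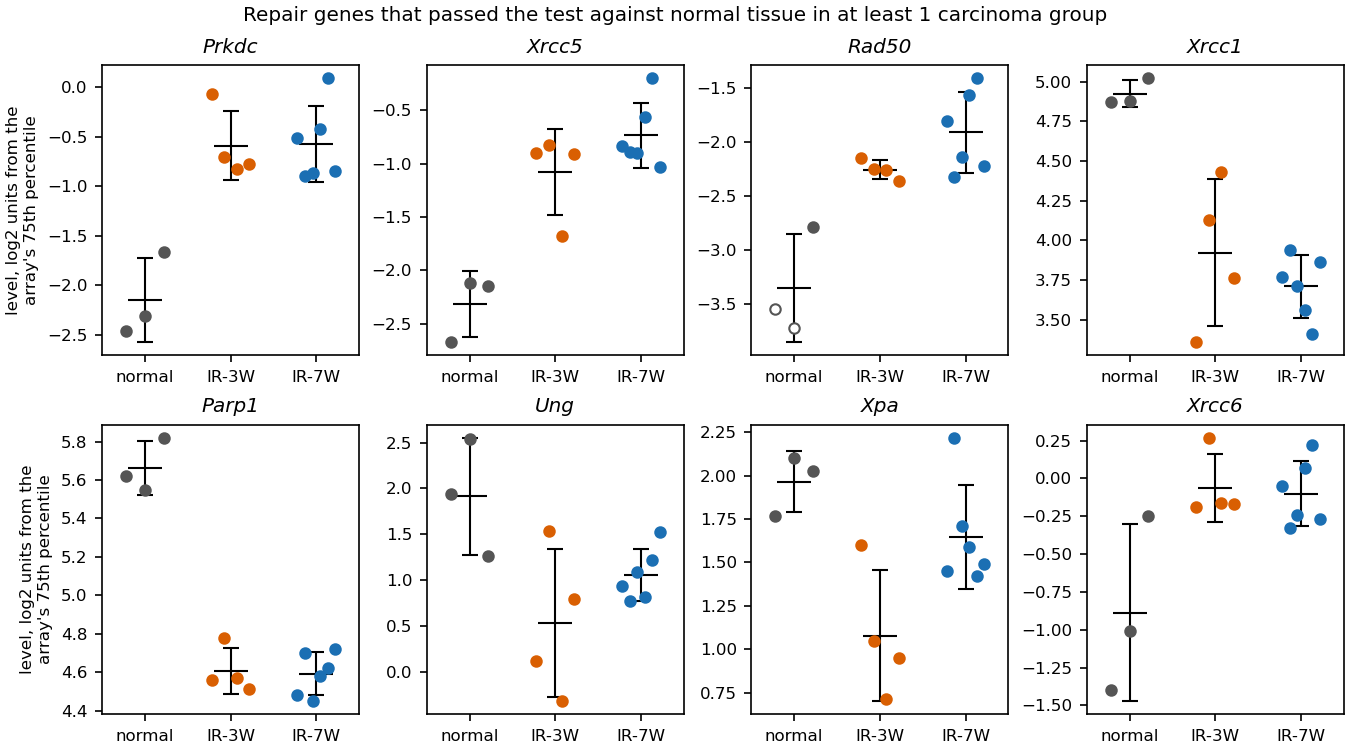
Levels (log2 units from the array's 75th percentile, vertical axis) of the 8 repair genes that passed in at least 1 comparison with normal tissue, 1 point per array, with the group mean and SD as bars. Open points were not well above background. Prkdc, Xrcc5 and Rad50 are higher in all 10 carcinomas, Xrcc1 and Parp1 are lower in all 10, and Ung, Xpa and Xrcc6 overlap with normal tissue in at least 1 carcinoma group.

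Rad50, the coiled-coil ATPase that tethers broken ends, was the only one of its complex to pass in the fit described above. Its levels were -3.54, -3.72 and -2.78 in normal tissue, -2.15, -2.25, -2.26 and -2.36 in IR-3W carcinomas, and from -2.32 to -1.41 with a median of -1.97 in IR-7W carcinomas. All carcinomas were above all normal samples, but the probe was well above background on 1 of 3 normal arrays, normal 3, and on all 10 carcinoma arrays, so it met the filter of 3 arrays through the carcinomas. Rad50 rose by 1.09 ± 0.29 in IR-3W (adjusted p = 0.0243) and by 1.44 ± 0.27 in IR-7W (adjusted p = 0.00265). With normal 1 and 2 at background the sizes are uncertain, and no fold is given. In IR-3W the call was lost without normal 1 (0.99, adjusted p = 0.0916), normal 2 (0.91, adjusted p = 0.119) or IR-3W 1 (1.06, adjusted p = 0.0502), and in IR-7W it held without any single array. Under normexp the differences were 0.14 and 0.03. Mre11, the nuclease of the complex, differed by -0.14 ± 0.31 and -0.19 ± 0.29, and Nbn, which carries the complex to the nucleus and to Atm, by 0.17 ± 0.22 and 0.23 ± 0.20. Under normexp, limma called Mre11 lower in IR-7W (-0.87, adjusted p = 0.0098), where 10681 of 25360 features were lower and the median of all features was -0.55. The Nbn intervals of -0.31 to 0.65 and -0.21 to 0.67 leave room for changes within those limits.

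The start regions of Xrcc5, Rad50 and Xrcc6, of which Xrcc6 passed in IR-7W alone, are shown so that their motifs can be set side by side. Each is the RefSeq window of the GRCr8 assembly from 250 bases before to 50 bases after the annotated start, printed 5′ to 3′ on the strand of the gene. Capitals mark matches, on either strand, to 6 short motifs: the GC box GGGCGG, the CCAAT box CCAAT, the ETS motif CCGGAAG, the E2F motifs TTTGGCGC and TTTCCCGC, and the cell cycle element TTTGAA. Prkdc has no window in the table used. The windows are chr9:81404257-81404556 (plus strand) for Xrcc5, chr7:115422934-115423233 (plus) for Xrcc6 and chr10:38362051-38362350 (minus) for Rad50.
Xrcc5: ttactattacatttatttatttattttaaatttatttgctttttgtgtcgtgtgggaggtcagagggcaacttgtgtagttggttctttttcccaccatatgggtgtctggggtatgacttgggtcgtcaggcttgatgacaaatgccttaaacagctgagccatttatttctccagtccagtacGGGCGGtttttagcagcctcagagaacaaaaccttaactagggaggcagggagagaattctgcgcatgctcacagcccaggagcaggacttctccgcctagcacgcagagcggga
Xrcc6: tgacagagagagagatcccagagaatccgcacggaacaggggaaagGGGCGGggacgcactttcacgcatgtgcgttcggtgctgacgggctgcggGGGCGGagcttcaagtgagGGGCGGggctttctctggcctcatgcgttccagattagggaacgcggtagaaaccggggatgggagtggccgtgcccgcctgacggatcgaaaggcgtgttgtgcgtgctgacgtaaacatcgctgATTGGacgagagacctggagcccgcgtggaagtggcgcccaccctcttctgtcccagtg
Rad50: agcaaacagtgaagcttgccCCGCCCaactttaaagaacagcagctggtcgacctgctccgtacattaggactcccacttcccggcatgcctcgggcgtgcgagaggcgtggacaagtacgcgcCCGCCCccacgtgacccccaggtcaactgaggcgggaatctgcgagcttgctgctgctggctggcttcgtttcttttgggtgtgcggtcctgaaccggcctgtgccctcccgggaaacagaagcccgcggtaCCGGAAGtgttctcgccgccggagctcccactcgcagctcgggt

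The Xrcc5 window holds 1 GC box, that of Xrcc6 holds 3 GC boxes and a CCAAT box, and that of Rad50 holds 2 GC boxes and an ETS motif just after the start. A GC box was present in 33.1% of the 33469 windows of the table and in 19 of the 27 repair genes that have one, a CCAAT box in 37.5% and 11 of 27, and an ETS motif in 8.75% and 6 of 27. The E2F motif TTTCCCGC was found in 0.974% of all windows and in 4 of 27 (Atm, Chek1, Bard1 and Fancd2), TTTGGCGC in 0.493% and 0 of 27, and TTTGAA in 18.3% and 6 of 27. Base composition differs too. The median window of the repair genes was 59.7% G and C with 22 CG pairs, against 51.7% and 7 over the table, while that of Xrcc5 had 46.3% and 8. A match describes letters and shows no binding, and the windows of genes that rose hold no motif in common beyond the GC box.

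Signalling genes upstream and downstream of the breaks did not pass in the fit described above. Atm, the apical kinase, differed by 0.47 ± 0.34 in IR-3W and -0.08 ± 0.31 in IR-7W and was well above background on 1 of 3 normal arrays. Chek2, the kinase it activates, stood at -1.35, -1.26 and -0.63 in normal tissue and from -2.04 to -1.35 in IR-7W carcinomas, at or below the lowest normal value. Its difference was -0.64 ± 0.27 in IR-7W (adjusted p = 0.112) and -0.47 ± 0.29 in IR-3W (adjusted p = 0.315). Chek1, the checkpoint kinase of stalled forks, spread widely: -2.97, -4.02 and -1.14 in normal tissue and -2.29, -0.33, -1.53 and -1.34 in IR-3W carcinomas. Its differences of 1.34 ± 0.63 and 0.84 ± 0.58 did not pass (adjusted p = 0.173 and 0.332), and the probe was well above background on 1 of 3 normal arrays, normal 3. Without that array the IR-3W difference was 2.13 (adjusted p = 0.0307), which is then set against normal arrays at background alone and gives no size. H2ax, the histone phosphorylated around breaks, differed by 0.34 ± 0.43 and 0.16 ± 0.40, and Mdc1, which reads that phosphorylation, by -0.28 ± 0.38 and -0.61 ± 0.35. Limma with array weights estimated from the data called Chek1 higher in both groups (adjusted p = 0.00549 and 0.018), where 4895 and 5312 of 25360 features were higher. It also called Chek2 lower in IR-7W (-0.59, adjusted p = 0.0248), as it did 5323 of all features. Under normexp, limma called Chek2 (-0.64, adjusted p = 0.0239) and Atm (-0.95, adjusted p = 0.00417) lower in IR-7W. There 10681 of 25360 features were called lower and the median of all features was -0.55. Atm was then higher in IR-3W than in IR-7W (0.82, adjusted p = 0.0199), where 6818 of 25361 features were higher and their overall median was 0.39.

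In base excision and single-strand break repair 3 of 6 genes fell in IR-3W and 2 of 6 in IR-7W, where 5.35% and 8.85% of all features were lower, and 0 rose by limma. Ung, 1 of the 3, kept its call in 2 of 13 fits that left out 1 array. Parp1, the enzyme that marks strand breaks with poly(ADP-ribose), had the tightest groups of all 32 genes, with a pooled within-group SD of 0.12. Its levels were 5.62, 5.55 and 5.82 in normal tissue, 4.56, 4.78, 4.57 and 4.51 in IR-3W carcinomas and from 4.45 to 4.72 with a median of 4.60 in IR-7W carcinomas. No carcinoma came near the lowest normal sample. Parp1 fell by 1.06 ± 0.19 on the log2 scale in IR-3W (2.08-fold, adjusted p = 0.00238) and by 1.07 ± 0.17 in IR-7W (2.10-fold, adjusted p = 0.000981), and both calls held without any single array, though in a fit of only the 2 groups the IR-3W adjusted p was 0.052. Its other probe, well above background on all 13 arrays, was also lower in all carcinomas, at 2.43, 2.56 and 2.56 in normal tissue and 1.68 to 2.30 in the carcinomas. The size there was smaller, -0.57 in IR-3W (adjusted p = 0.0826) and -0.37 in IR-7W (adjusted p = 0.193), and did not pass. The 2 probes place Parp1 in 1 direction and differ on how far.

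Xrcc1, the scaffold that gathers the ligase and Parp1 at a nick, stood at 4.87, 4.88 and 5.02 in normal tissue, at 3.36, 4.13, 4.43 and 3.76 in IR-3W carcinomas and from 3.41 to 3.94 with a median of 3.74 in IR-7W carcinomas. The normal samples lay within 0.2 of each other and above every carcinoma. Xrcc1 fell by 1.0 ± 0.26 in IR-3W (2.0-fold, adjusted p = 0.0213) and by 1.22 ± 0.24 in IR-7W (2.32-fold, adjusted p = 0.00364). The IR-7W call held without any single array. The IR-3W call did not, with adjusted p of 0.0571 without normal 1, 0.0655 without normal 2, 0.0636 without normal 3 and 0.0535 without IR-3W 4, while the difference stayed between -1.17 and -0.82. Under normexp it was -0.74 (adjusted p = 0.172).

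The windows around the starts of Parp1 and Xrcc1, the genes called lower in each carcinoma group, are given on the same terms. They lie at chr13:94839234-94839533 (plus strand) for Parp1 and chr1:89268939-89269238 (plus) for Xrcc1.
Parp1: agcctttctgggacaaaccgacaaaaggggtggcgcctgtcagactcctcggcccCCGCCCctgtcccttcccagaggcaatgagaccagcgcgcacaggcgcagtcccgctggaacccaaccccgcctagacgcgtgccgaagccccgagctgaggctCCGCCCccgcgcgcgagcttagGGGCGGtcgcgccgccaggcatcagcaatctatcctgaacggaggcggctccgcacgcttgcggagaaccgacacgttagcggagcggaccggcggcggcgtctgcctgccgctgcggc
Xrcc1: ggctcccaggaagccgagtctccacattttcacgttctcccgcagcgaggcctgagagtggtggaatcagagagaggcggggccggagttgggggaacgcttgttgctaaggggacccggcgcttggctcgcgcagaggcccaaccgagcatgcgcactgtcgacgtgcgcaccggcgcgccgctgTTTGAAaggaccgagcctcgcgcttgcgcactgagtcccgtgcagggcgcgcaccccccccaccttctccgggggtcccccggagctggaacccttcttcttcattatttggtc

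The Parp1 window, 70.3% G and C with 37 CG pairs, holds 3 GC boxes, and the Xrcc1 window, 66% with 29, holds the element TTTGAA and no GC box. The window of Ung, which fell in IR-3W alone, holds 4 GC boxes, 3 CCAAT boxes and 1 TTTGAA. The GC box is thus found among genes that rose and genes that fell, and these letters do not sort the 2 directions.

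Ung, the glycosylase that removes uracil, stood at 1.94, 2.54 and 1.26 in normal tissue, at 0.12, 1.53, -0.32 and 0.79 in IR-3W carcinomas and from 0.77 to 1.52 in IR-7W carcinomas. Both carcinoma groups overlapped with normal 3. The difference was -1.38 ± 0.42 in IR-3W (2.60-fold lower, adjusted p = 0.0427) and -0.85 ± 0.39 in IR-7W (adjusted p = 0.136). Without normal 2 the difference was -1.07 (adjusted p = 0.185). The rest of the group did not pass: Apex1, the main endonuclease at abasic sites, differed by -0.51 ± 0.22 and -0.22 ± 0.20, Ogg1, which removes oxidised guanine, by 0.30 ± 0.29 and -0.06 ± 0.27, and Lig1, the replicative ligase, by -0.12 ± 0.38 and -0.15 ± 0.36.

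**Figure D3:**
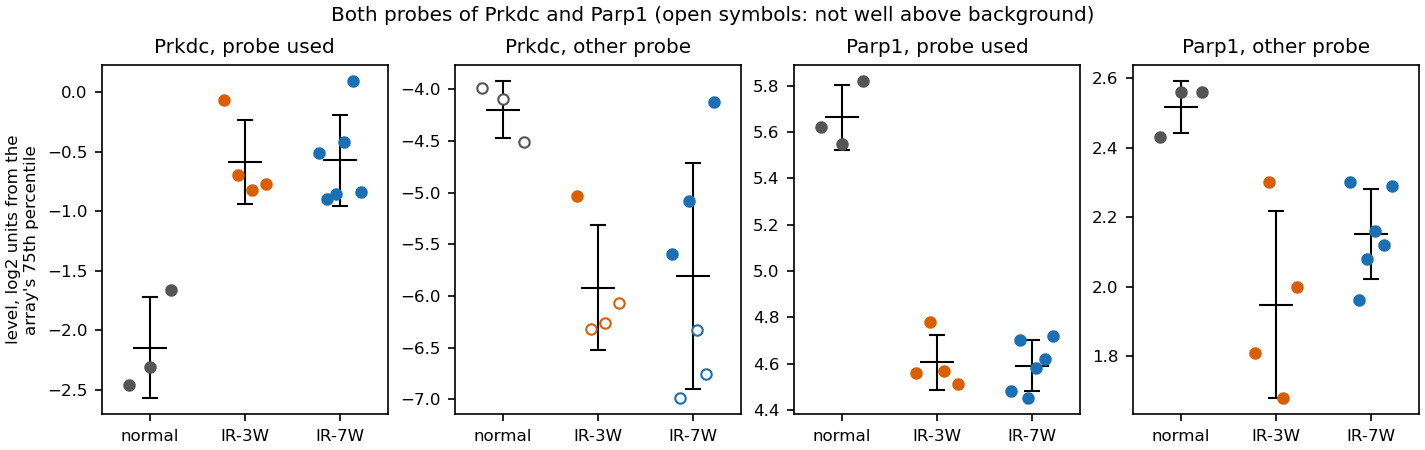
Levels (log2 units from the array's 75th percentile) of both probes of Prkdc and of Parp1, 1 point per array with the group mean and SD as bars; open points were not well above background. The used Prkdc probe is measured on all 13 arrays and higher in the carcinomas, its other probe is at background on all 3 normal arrays, and both Parp1 probes are lower in the carcinomas.

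Xpa, which verifies damage in nucleotide excision repair, had the smallest p of the 32 genes between the carcinoma groups. It stood at 1.77, 2.10 and 2.03 in normal tissue, at 1.60, 1.05, 0.71 and 0.95 in IR-3W carcinomas and from 1.42 to 2.22 with a median of 1.54 in IR-7W carcinomas. All IR-3W samples were below normal tissue, and 1 IR-7W sample, IR-7W 2, was the highest of all 13. The difference was -0.88 ± 0.27 in IR-3W (1.85-fold lower, adjusted p = 0.0427), a call kept in 2 of 13 fits that left out 1 array and lost at -0.82 without normal 2 (adjusted p = 0.144), and -0.32 ± 0.25 in IR-7W (adjusted p = 0.391). The direct difference of IR-3W minus IR-7W was -0.56 ± 0.23 and did not pass (adjusted p = 0.325). Xpc, the damage sensor, differed from normal tissue by -0.20 ± 0.31 and 0.25 ± 0.29, and Ercc1, part of the incision nuclease, by -0.16 ± 0.21 and -0.38 ± 0.19 (adjusted p = 0.656 and 0.177). In mismatch repair, Pms2, the endonuclease subunit, stood at 0.73, 0.73 and 1.5 in normal tissue and from 0.15 to 0.63 in the carcinomas, below all normal samples, with differences of -0.59 ± 0.24 and -0.59 ± 0.22 that did not pass (adjusted p = 0.118 and 0.0743). Its other probe, of the same accession and well above background on 12 of 13 arrays, differed the other way, by 0.34 and 0.13, and did not pass. The other probes of Nhej1 (-0.27 and 0.25), Atm (-0.17 and 0.27) and Brca2 (0.86 and 0.41) did not pass either. Rad18, the ubiquitin ligase of postreplication repair, differed by 0.00 ± 0.37 and -0.32 ± 0.34.

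Homologous recombination and its partners gave 0 calls in the 3 comparisons by limma with equal array weights, with 0 at an unadjusted p under 0.05, and the ranges of their levels overlapped between groups. Bard1, the partner of Brca1, ran from -3.78 to -1.43 in normal tissue, from -1.76 to 0.31 in IR-3W and from -3.09 to -0.53 in IR-7W carcinomas, with a within-group SD of 1.03. Fancd2, which guards crosslinked and stalled forks, ran from -4.18 to -1.70, from -2.77 to 0.01 and from -3.12 to -0.87, and Exo1, a resection nuclease also used in mismatch repair, from -1.61 to 1.2, from -0.59 to 1.87 and from -0.99 to 1.16, each with an SD of 1.03. Differences of 1.33 ± 0.72 for Bard1, 1.33 ± 0.72 for Fancd2 and 0.91 ± 0.72 for Exo1 in IR-3W therefore did not pass (adjusted p = 0.236, 0.239 and 0.43). With array weights estimated from the data, limma gave 2.17 for Bard1, 2.17 for Fancd2 and 1.66 for Exo1 in IR-3W. These and Rad51c passed (adjusted p = 0.0136, 0.0141, 0.0376 and, for Rad51c, 0.0499), where 4895 of 25360 features were higher. Bard1 and Fancd2 were at background on normal 2, so their sizes are uncertain. Rad51c was at background on normal 1 and 2, and no size is given for it. Normexp called Brca1 and Brca2 (-0.81) lower in IR-7W, where 10681 of 25360 features were lower and the median of all features was -0.55. The Brca1 call is set against normal arrays at background alone and gives no size. Brca2 was higher in IR-3W than in IR-7W under normexp (0.58), where the median of all features was 0.39 and 6818 of 25361 were higher. Brca1, the tumour suppressor that starts strand resection with Bard1, was well above background on 0 of 3 normal, 2 of 4 IR-3W and 5 of 6 IR-7W arrays, so no fold is given. Rad51c, a recombinase paralogue, was well above background on 1, 3 and 6 arrays of the normal, IR-3W and IR-7W groups, and Brca2, which loads the recombinase, on 2, 4 and 6, with differences of 0.04 ± 0.27 and -0.14 ± 0.25 for Brca2. Rad54l, a translocase of recombination, differed by 0.36 ± 0.49 and -0.50 ± 0.46.

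Some samples were high or low for many genes at once. IR-3W 2 held the highest value of its 4 samples for 17 of 32 genes, among them Chek1, Bard1, Fancd2, Exo1, Brca1 and Rad51c, and the highest of all 10 carcinomas for 14. IR-7W 5 held the highest of its 6 for 21 of 32 and normal 3 the highest of its 3 for 23, while IR-3W 1 held the lowest of its group for 19, normal 2 for 15 and normal 1 for 14. The mean log2 level of 11 proliferation markers was 2.05 in IR-3W 2, 1.82 in IR-7W 5 and -1.04 in normal 2, where the other carcinomas had -0.47 to 0.87, IR-3W 1 among them at 0.10, and normal 1 and 3 had 0.10 and 0.67. The near equal tallies of normal 1 and 2 covered different genes. Normal 2 was the lowest for Chek1, Bard1, Fancd2 and Exo1, among others, and normal 1 for Prkdc, Xrcc5 and Xrcc6, among others. None of those 11 markers passed in any of the 3 comparisons by limma, with 0 at an unadjusted p under 0.05. The part of proliferation in the spread of the repair genes was not tested. Without IR-3W 2, IR-7W 5 and normal 2 together, an alternative chosen after seeing the data, 1 gene was higher and 1 lower in IR-3W, 3 were higher and 2 lower in IR-7W, and Xrcc5 in IR-3W had 1.24 (adjusted p = 0.057). Of all 25360 features, 1238 were then higher and 346 lower in IR-3W, and 1846 and 859 in IR-7W.

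**Figure D4:**
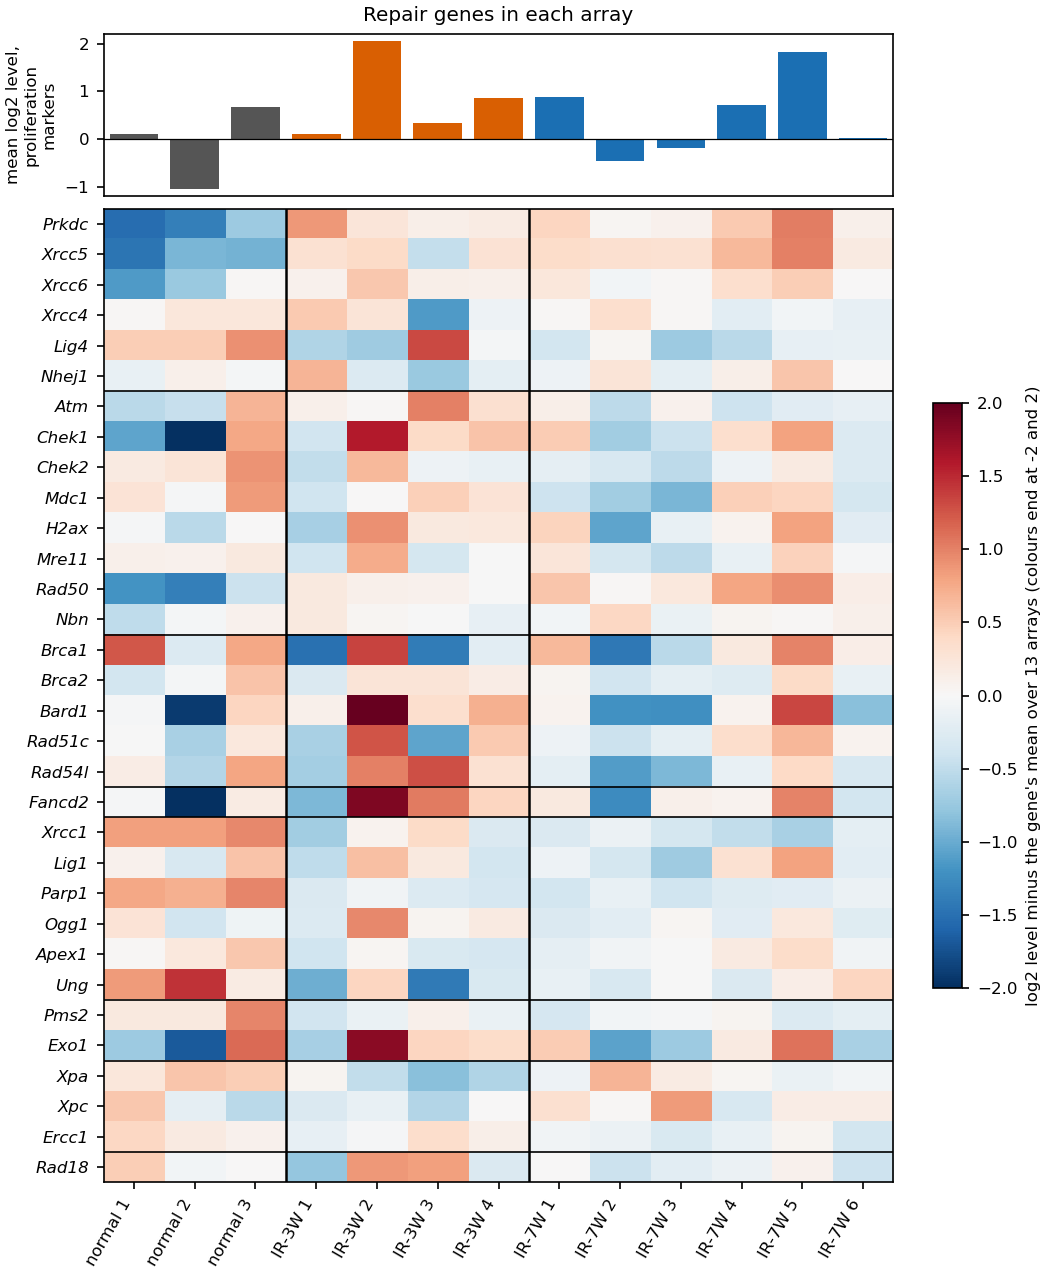
Level of each repair gene minus its mean over the 13 arrays (log2, colours end at -2 and 2), by array and pathway, with the mean log2 level of 11 proliferation markers above as bars from 0. IR-3W 2 and IR-7W 5 have the tallest bars, 2.05 and 1.82, and red cells for Chek1, Bard1, Fancd2 and Exo1, while normal 2 has the lowest, -1.04, and blue cells for the same genes.

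Between the carcinoma groups the question was whether age at irradiation left a mark on repair genes. IR-3W 3 and 4 lay on 1 slide and IR-7W 2, 3, 4 and 6 on another, so the pooled values mix age with slide. The summed fibroblast levels did not overlap, at 503 to 1520 in IR-3W and 137 to 320 in IR-7W. Age and fibroblast content cannot be told apart here. The 32 differences ran from -0.56 (Xpa) to 1.13 (Bard1), with a median of 0.05 against 0 over all features, and 1 had an unadjusted p under 0.05, that of Xpa. For the genes that rose or fell in both comparisons with normal tissue, the intervals of the difference were -0.58 to 0.55 for Prkdc, -0.86 to 0.18 for Xrcc5, -0.88 to 0.19 for Rad50, -0.26 to 0.69 for Xrcc1 and -0.33 to 0.35 for Parp1. Differences of up to about that size are therefore not excluded. Within the slide that held both groups, with 2 arrays each, the 32 differences had a median of -0.10, 17 of 32 kept the sign of the pooled value and 0 passed, with 0 at an unadjusted p under 0.05. Xpa had -0.11 ± 0.42 there, Bard1 0.43 ± 0.89 and Rad54l 0.06 ± 0.71 where the pooled value was 0.86 ± 0.42.

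Level-dependent shifts run through all features and are given beside the members they touch. Among the 2783 features with a mean level between -3 and -2, where Rad50 lies, the median difference was 0.16 in IR-3W and 0.14 in IR-7W, and 11.4 and 15.5% were called higher. Among the 715 features between 4 and 5, where Xrcc1 and Parp1 lie, it was -0.17 and -0.27, and 8.11 and 17.1% were called lower. The bands of Prkdc (-1 to 0) and Xrcc5 (-2 to -1) had medians between -0.06 and 0.08. The part of these shifts in the calls was not tested.

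A wider list of 124 other genes of the same pathways was drawn up with earlier results of these data known, and 80 of them were tested. In IR-3W 4 rose and 3 fell, 8.75% of the 80 against 14.6% of all features, and in IR-7W 6 rose and 4 fell, 12.5% against 20.8%. Between the carcinoma groups 0 of 80 passed in limma (4 at an unadjusted p under 0.05). Ube2v2, the ubiquitin-conjugating enzyme variant of error-free postreplication repair, rose in both (adjusted p = 3.46e-05 and 1.47e-05), but with 1 of 3 normal arrays well above background it met the filter through the carcinomas, and no size is given. Ercc6, the remodeller of transcription-coupled repair, rose by 2.05 ± 0.31 and 2.08 ± 0.29, and Rfc4, a subunit of the clamp loader, by 1.58 ± 0.41 and 1.51 ± 0.38. Rnf168, the ubiquitin ligase that marks histones at breaks, passed in both (adjusted p = 0.00286 and 0.0038). With no normal array well above background it too met the filter through the carcinomas, and no size is given. Ercc3, a helicase of nucleotide excision repair, fell by 0.97 ± 0.19 and 0.91 ± 0.18. In IR-3W Slx1b, a structure-specific nuclease subunit, and Rad51d, a recombinase paralogue, also fell, by 1.04 ± 0.26 and 0.92 ± 0.22. In IR-7W Dclre1c, the nuclease Artemis that trims ends for Lig4, fell by 1.75 ± 0.57 (adjusted p = 0.0463), Ube2a, the partner of Rad18, fell by 0.77 ± 0.26 and Rfc1, another clamp loader subunit, fell by 0.65 ± 0.21. Wdr48, a cofactor of the deubiquitinase acting on Fancd2, rose by 0.94 ± 0.26 there and Ercc8, another factor of transcription-coupled repair, rose by 0.54 ± 0.18. In IR-3W the values of these 5 did not pass, at -1.84 for Dclre1c (adjusted p = 0.0649), -0.44 for Ube2a, -0.63 for Rfc1, 0.78 for Wdr48 and 0.31 for Ercc8. In IR-7W Slx1b had -0.70 (adjusted p = 0.0563) and Rad51d -0.22, and 0 of these 7 genes passed between the carcinoma groups.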

How the data were processed

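RNA of 13 rat samples was hybridised to Agilent arrays with Cy3 alone, per the labels. The authors' deposited files hold the processed signal per spot, a background-subtracted linear intensity from Feature Extraction 10.7.3.1, per the file headers. The labels also list non-irradiated tissue as a second channel, but the scanner signals are Cy3 alone. The authors also deposited log2 values for the same arrays; after removing an offset of -0.0335 to 0.0125 per array, 99.4 to 99.6% of these lay within 0.01 of the scanner log2 values centred on the normal mean, and 29.4 to 52.2% were blank. They served as an alternative.

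Control spots (1639 of 45018) and outlier spots were left out, the array's 75th percentile of log2 signal was subtracted, and 29307 of 41012 probes well above background on at least 3 arrays were kept, each gene by its probe of highest mean. Accessions were matched to RefSeq symbols without versions. Groups and replicate numbers come from the sample titles. limma 3.58.1 in R 4.3.3 fitted 3 group means, and reading used data.table (version 1.17.8). The intervals of differences are 95% intervals. Precision is limited by how few arrays each group holds. The planned normexp alternative used median spot signals, with an offset of 50, in place of mean signals, which were not used here. Promoter windows are those of RefSeq for GRCr8. The members and lists were chosen with earlier results of these data known. Named were members that passed, up to 2 per pathway and comparison with the smallest p, members at background in a group, and of the other repair genes up to 2 per pathway and comparison that passed. Fits were tested on simulated data.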

Additional observations from a re-analysis of the deposited data

Results flagged for a closer look

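In 4 of 64 groups of 4 or 6 samples, 1 sample stood apart from the others by Dixon's test at its 95% critical value, and chance flags about 1 group in 20. Prkdc was highest in IR-3W 1, at -0.07 against -0.70 for the next sample. Xrcc5 was lowest in IR-3W 3, at -1.68 against -0.91 for the next sample. Xrcc6 was highest in IR-3W 2, at 0.27 against -0.16. Xpa was highest in IR-7W 2, at 2.22 against 1.71. These are log2 levels from each array's 75th percentile.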

How the results depend on the processing

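In limma, Parp1 and Prkdc (its used probe) kept their calls in both comparisons without any single array (Prkdc in IR-3W lost its call under normexp), as did Xrcc5, Rad50 and Xrcc1 in IR-7W. Other calls lay near the threshold. In IR-3W 3 genes were higher and 4 lower, where 2342 and 1358 of 25360 features were. These counts were 0 and 1 under normexp (779 and 401 of all features) and 1 and 0 in a fit of only the 2 groups (1297 and 445). They were 1 and 1 without normal 2, IR-3W 2 and IR-7W 5 together (1238 and 346). With array weights 9 were higher, but so were 4895 of all features. Cyclic loess, also added after seeing the data, gave 2 lower (1319 of all features). Leaving out 1 array gave 1 to 5 higher (1 without normal 1, 5 without normal 3) and 1 to 3 lower (1 without normal 1, normal 2 or IR-3W 4, and 2 without normal 3 or IR-7W 1, 3, 4, 5 or 6). Over all features, 1622 were higher and 643 lower without normal 1, and 1975 and 883 without normal 3. The features lower were 548 without normal 2 and 926 without IR-3W 4. In IR-7W 4 genes were higher and 2 lower, where 3029 and 2245 of 25360 features were. Under normexp the counts were 2 and 9, against 2055 and 10681 of all features. With array weights 7 were lower, against 5323 of all features. Normexp, whose offset of 50 compares with normal 75th percentiles from 82.3, moved the median of all features to -0.21, -0.55 and 0.39. It gave 4 higher and 2 lower between the carcinoma groups, where 0 passed otherwise, but it also called 6818 of 25361 features higher and 658 lower. It reversed Rad51c in IR-7W (-1.05), Brca1 (0.85) and Rad51c (0.74) between carcinomas. Median scaling moved the median of all features to -0.19, -0.16 and -0.04. Prkdc reversed with the mean of its probes (-0.08 and -0.02) and with its other probe (-1.72 and -1.61). Same-numbered samples correlated in their deviations at r from -0.206 to 0.0774, so the numbers do not pair samples. With the replicate block 1 gene was higher and 0 lower in IR-3W (1193 and 415 of all features) and 1 lower in IR-7W (770 of all features). The slide as a random block took a correlation of -0.0581. The cause of these shifts was not tested. The dim normal arrays limit genes at background there (Brca1, Rad50, Atm, Chek1, Rad51c).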
